A study of Mus musculus with 8 samples.

Results

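The genes described here lie on mouse chromosome 17 around Nkx2-5, the gene of a homeobox transcription factor of the heart. They are the genes of the deposited table whose start falls between positions 16838664 and 36845009 (GRCm38, GENCODE M21 annotation), which is 10 Mb to either side of Nkx2-5 at 26838664 to 26845009. The 13 genes of the H2 complex in this window and Nkx2-5 itself were left out. This gave 314 genes of 13637 in the table, with 136 at lower coordinates than Nkx2-5 and 178 at higher coordinates. Hearts of mouse embryos at embryonic day 9.5 were profiled by RNA-seq of polyA RNA. The 4 samples called GOF carried the genotype Bmp2GOF;Nkx2.5-Cre, in which a gain-of-function allele of the ligand gene Bmp2 is combined with a Cre recombinase under the control of Nkx2-5, and the 4 samples called WT were wild type. The labels do not give the Nkx2.5-Cre line, the strain of either group, the site of the Bmp2 allele, or whether a sample was 1 embryo or a pool, so a p-value here speaks of the spread among 8 samples that may share embryos, litters or handling.

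Genes that sit close together on a chromosome are inherited together, so the alleles beside a locus that is selected by genotype tend to be carried along with it. Neighbouring genes can also share promoters, enhancers and chromatin domains, and many lie so close that their transcripts overlap. The window around Nkx2-5 is gene-dense. It holds clusters of zinc finger genes at its lower end and again above Nkx2-5, the polycystin gene Pkd1 beside the tuberous sclerosis gene Tsc2, the cell cycle inhibitor gene Cdkn1a, and the class III part of the major histocompatibility region with the inducible Hsp70 genes. Of the 314 genes, 292 were annotated as protein-coding and 22 were not, among them 5 lincRNAs, 6 antisense RNAs and 5 pseudogenes. The annotation lists 973 genes in the window under the same exclusions, 486 of them protein-coding, and those without a row in the table were not analysed here.

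The promoters below belong to genes described in the results. Atp6v0e, Crebrf, Bnip1 and Kifc5b are a run of 4 neighbours that lies around Nkx2-5 and was higher in GOF. Dusp1 is a further strong rise nearby, and Ier3 and Hspa1a are the largest rises at the far end of the window. Each sequence holds 250 bases before and 50 bases after a RefSeq transcription start (GRCm38.p6), 5′ to 3′ on the gene's own strand. Capitals mark every match, on either strand, to ACGTG (the core of a hypoxia response element), to GAANNTTC (a heat shock element unit) or to TGACGTCA (the cAMP response element). A stretch CACGTG is 2 overlapping ACGTG matches, on opposite strands. The Atp6v0e and Dusp1 starts shown lie 13165 and 53656 bases from the outermost GENCODE start of each gene, and the other 5 within 29 bases of it. Overlaps given here rest on the whole GENCODE span of a gene, and distances on its lowest coordinate, whichever its strand. The RefSeq table had an entry for 252 of the 314 genes, and for Rgs11 it had none.
Atp6v0e (chr17:26676146-26676445, plus strand): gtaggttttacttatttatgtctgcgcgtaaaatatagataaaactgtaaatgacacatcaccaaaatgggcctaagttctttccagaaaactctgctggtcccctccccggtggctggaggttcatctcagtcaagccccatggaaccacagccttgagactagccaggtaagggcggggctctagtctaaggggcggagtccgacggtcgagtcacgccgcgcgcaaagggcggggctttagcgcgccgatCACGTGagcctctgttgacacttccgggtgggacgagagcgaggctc
Crebrf (chr17:26715400-26715699, plus strand): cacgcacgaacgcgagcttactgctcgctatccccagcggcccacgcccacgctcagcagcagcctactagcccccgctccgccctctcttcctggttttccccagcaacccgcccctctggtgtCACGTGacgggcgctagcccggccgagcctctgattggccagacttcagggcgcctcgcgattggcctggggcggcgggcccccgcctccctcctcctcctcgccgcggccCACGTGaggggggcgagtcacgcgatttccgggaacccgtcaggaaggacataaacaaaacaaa
Bnip1 (chr17:26780829-26781128, plus strand): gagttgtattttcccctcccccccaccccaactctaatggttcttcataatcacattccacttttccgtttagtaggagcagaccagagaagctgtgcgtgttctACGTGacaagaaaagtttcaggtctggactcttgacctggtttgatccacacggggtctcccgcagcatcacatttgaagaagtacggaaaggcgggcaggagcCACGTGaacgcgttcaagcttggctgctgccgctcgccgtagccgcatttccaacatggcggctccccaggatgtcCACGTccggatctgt
Kifc5b (chr17:26916841-26917140, plus strand): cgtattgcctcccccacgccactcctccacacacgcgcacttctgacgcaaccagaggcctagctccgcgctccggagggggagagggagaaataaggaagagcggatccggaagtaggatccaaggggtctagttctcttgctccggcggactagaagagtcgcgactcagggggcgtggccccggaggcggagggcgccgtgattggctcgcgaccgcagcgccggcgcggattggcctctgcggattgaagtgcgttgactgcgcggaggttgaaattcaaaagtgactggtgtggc
Dusp1 (chr17:26508423-26508722, minus strand): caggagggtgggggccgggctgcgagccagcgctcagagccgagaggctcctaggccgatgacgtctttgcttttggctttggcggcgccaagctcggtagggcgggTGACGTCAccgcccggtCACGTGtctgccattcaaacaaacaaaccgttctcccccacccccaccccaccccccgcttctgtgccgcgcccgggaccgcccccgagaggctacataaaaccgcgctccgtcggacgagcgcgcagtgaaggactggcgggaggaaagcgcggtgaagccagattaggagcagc
Ier3 (chr17:35821463-35821762, plus strand): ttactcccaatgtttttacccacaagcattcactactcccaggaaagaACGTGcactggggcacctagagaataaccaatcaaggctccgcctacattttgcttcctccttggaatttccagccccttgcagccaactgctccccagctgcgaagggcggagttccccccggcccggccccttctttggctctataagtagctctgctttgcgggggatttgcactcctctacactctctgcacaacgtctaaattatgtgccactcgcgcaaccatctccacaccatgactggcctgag
Hspa1a (chr17:34972107-34972406, minus strand): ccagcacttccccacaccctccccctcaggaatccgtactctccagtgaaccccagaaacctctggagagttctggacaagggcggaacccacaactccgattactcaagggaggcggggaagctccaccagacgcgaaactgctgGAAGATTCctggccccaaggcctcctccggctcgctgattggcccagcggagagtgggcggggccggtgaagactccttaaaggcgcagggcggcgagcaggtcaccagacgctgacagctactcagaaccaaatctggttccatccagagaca

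The ACGTG core was found in 1 place in the Atp6v0e, Dusp1 and Ier3 promoters, in 2 places in that of Crebrf and in 3 places in that of Bnip1, and it was not in the Kifc5b or Hspa1a window. It was present in 19.6% of all 32851 RefSeq promoters of this length, in 23.4% of the 337 promoter entries of the genes around Nkx2-5, and in 28% of the 100 entries that belong to genes higher in GOF. The full palindrome CACGTG, searched for after these letters were seen, occurs in the Atp6v0e, Crebrf, Bnip1 and Dusp1 promoters, in 7.15% of all promoters and in 12.2% of those around Nkx2-5. The heat shock unit GAANNTTC is in the Hspa1a promoter and in 7.86% of all promoters. The sequence TGACGTCA is in the Dusp1 promoter and in 1.79% of all promoters. The other motifs searched on both strands were TGGGAA (an RBPJ site, in 25.6% of all and 26.4% of the window's promoters) and TNAAGTG (an Nkx2-5 site, in 11.5% and 9.5%). Among the 100 entries of genes higher in GOF these motifs were in 18% and 3%, GAANNTTC was in 8%, TGACGTCA in 2% and CACGTG in 13%. The set of all promoters was not limited to genes with a row in the table. No share was taken for table genes of the other autosomes, or for genes that fell or did not pass. The differences between these shares were not tested. These matches describe letters in a short window and are no evidence of binding.

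Normalized reads, the deposited unit, are whole reads plus 0.5 divided by a scale for each library. Summed over the genes of the table, the GOF libraries came to between 13182009 and 17927674 reads and the WT libraries to between 12287069 and 16697480. Divided by that scale, 3 reads without the added 0.5 correspond to 0.17 to 0.242 normalized reads. All 6 cardiomyocyte markers looked up were in the table, with a summed level of 30848 to 36414 normalized reads in GOF and 28801 to 32724 in WT. The 5 endocardial markers summed to 416 to 528 in GOF and 558 to 606 in WT, with 1 higher and 3 lower, and the 13 mitochondrial mRNAs to 11772 to 13358 and 30315 to 32015. The 5 erythroid markers overlapped, at 2065 to 11596 in GOF and 2060 to 5864 in WT. Of the liver and endoderm markers Afp alone was in the table, at 0.193 to 3.38 in GOF and 1.33 to 39.5 in WT, and Alb, Foxa2 and Ttr were not. Of 4 neural markers the 3 found summed to 17.4 to 19.2 and 17.2 to 21.6. The part of these differences in the results below was not tested, and in whole hearts fewer cells of a type and less RNA per cell cannot be told apart. Nkx2-5 itself was at 141, 143, 153 and 167 normalized reads in the GOF samples and at 116, 107, 132 and 117 in the WT samples, with no overlap (log2 change 0.35, limma adjusted p = 0.000421). Bmp2, the gene named in the GOF genotype, was at 95.8, 102, 108 and 91.1 in GOF and 61.7, 59.6, 54.4 and 49.5 in WT (log2 change 0.81, limma adjusted p = 2.91e-07), higher in each GOF sample than in any WT sample.

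The genes around Nkx2-5 changed about as often as genes elsewhere. A gene was called when its adjusted p was under 0.05 in limma on log2(normalized reads + 1), fitted over all genes. By this rule 170 of the 314 genes passed (54.1%), with 89 higher and 81 lower in GOF, while 56.3% of all genes tested and 56.6% of the 12385 genes of the other autosomes passed. Of all genes 28.2% were higher and 28.2% lower, and of the other autosomes' genes 28.3% and 28.4%. On the other 18 autosomes taken singly the share ran from 50.1% on chromosome 13 to 60.3% on chromosome 16, with 4 autosomes below the window's share and 14 above it. Of the 326 genes of chromosome 17 outside the window 56.4% passed. The 89 higher genes are 52.4% of those called. With columns set to equal totals and mitochondrial genes left out that share was 40.9%, and on the other autosomes it was 49.9% and 40.1% in the same fits.

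The sizes of the changes were also close to those elsewhere. The median log2 change was 0.02 around Nkx2-5 and -0.002 on the other autosomes, and the median size without its sign was 0.22 and 0.23. With equal totals without mitochondrial genes the median was -0.04 around Nkx2-5 and -0.06 on the other autosomes. With quantile normalization it was -0.04 and -0.05, and with libraries centred on the other autosomes 0.004 and -0.02. Changes of at least 2-fold that passed the test numbered 9 rises and 2 falls, or 3.50% of the genes, against 4.55% of all genes and 4.52% on the other autosomes, where single chromosomes ran from 2.58% to 6.46%. GOF and WT samples did not overlap for 154 genes (49.0%), against 50.9% of all genes and 51.3% on the other autosomes. The 144 genes that did not pass had log2 changes between -0.35 and 0.37. No test of the window against other regions was made.

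Level mattered for how many genes passed. Among genes with a mean of 50 or more normalized reads 61 of 88 passed around Nkx2-5 (69.3%) and 68.1% on the other autosomes. Between 10 and 50 it was 84 of 143 (58.7%) and 58.5%. Under 10 it was 25 of 83 (30.1%) and 40.3%. With overlapping genes left out the share was 55.7% of 212 genes, against 57.4% on the other autosomes, and with protein-coding genes alone it was 56.8% of 292 against 58.1%.

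**Figure D1:**
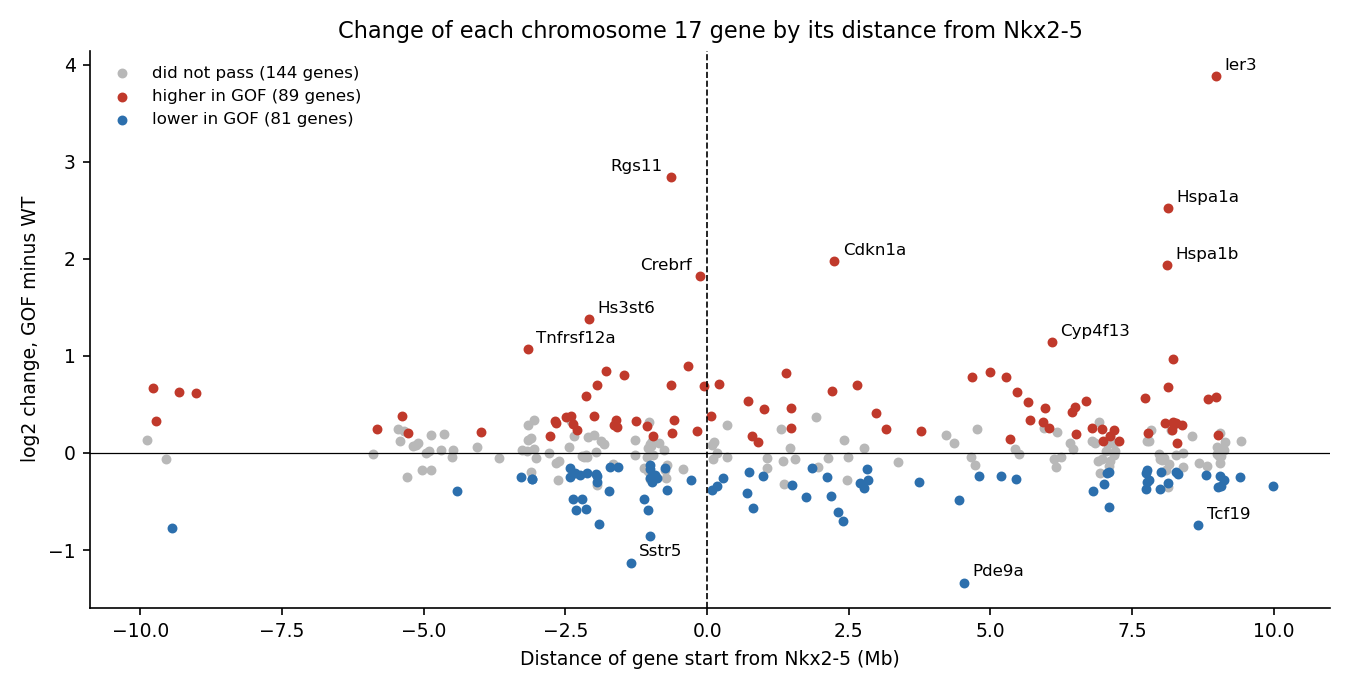
Log2 change, GOF minus WT, of each of the 314 genes (y axis) against the distance of its start from Nkx2-5 in Mb (x axis, dashed line at Nkx2-5), with 89 genes higher in GOF in red, 81 lower in blue and 144 that did not pass in grey. Rises and falls are spread over the whole window, and the largest change, of Ier3, lies 8.98 Mb away.

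Distance from Nkx2-5 ordered the genes little. Within 1 Mb 27 of 42 genes passed (64.3%), 14 higher and 13 lower. From 1 to 2.5 Mb it was 51 of 87 (58.6%), from 2.5 to 5 Mb 23 of 53 (43.4%), from 5 to 7.5 Mb 29 of 63 (46.0%) and from 7.5 to 10 Mb 40 of 69 (58.0%). The share was thus higher in the nearest and farthest bins than in the middle of the range. Zinc finger genes, of which 34.1% passed, numbered 1, 2, 12, 26 and 3 in these bins in order of distance. Of the 129 genes within 2.5 Mb 78 passed (60.5%), 35 higher and 43 lower, and this share was above that of the other autosomes in the main test and in each of the 18 alternatives, where it ran from 55.0% to 67.9%. The difference itself was not tested, and the alternatives refit the same 8 libraries or parts of them. The median size of the log2 change was 0.23 within 1 Mb, 0.25 from 1 to 2.5 Mb, 0.19 from 2.5 to 5 Mb, 0.20 from 5 to 7.5 Mb and 0.23 from 7.5 to 10 Mb. Across the 314 genes the size of the change and the distance had a Spearman rank correlation of -0.09. It was -0.17 over the 136 genes at lower coordinates and -0.13 over the 178 at higher coordinates, as a description only, since neighbouring genes are not independent and all values come from the same 8 libraries.

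The sides differed in the middle distances. Between 2.5 and 5 Mb 9 of 32 genes passed at lower coordinates (28.1%) and 14 of 21 at higher coordinates (66.7%). Between 5 and 7.5 Mb it was 3 of 12 (25%) and 26 of 51 (51.0%). Zinc finger genes made up 12 of the 32 and 11 of the 12 genes on the lower side in these bins, and the median level of the genes there was 16.1 and 8.99 normalized reads, against 27.7 on the other autosomes. On the higher side 0 of the 21 and 15 of the 51 genes were zinc finger genes, and the median levels were 29.2 and 23.6. From 7.5 to 10 Mb the lower side held 7 genes alone, of which 5 passed. Over all distances 51.5% of genes passed on the lower side and 56.2% on the higher side.

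**Figure D2:**
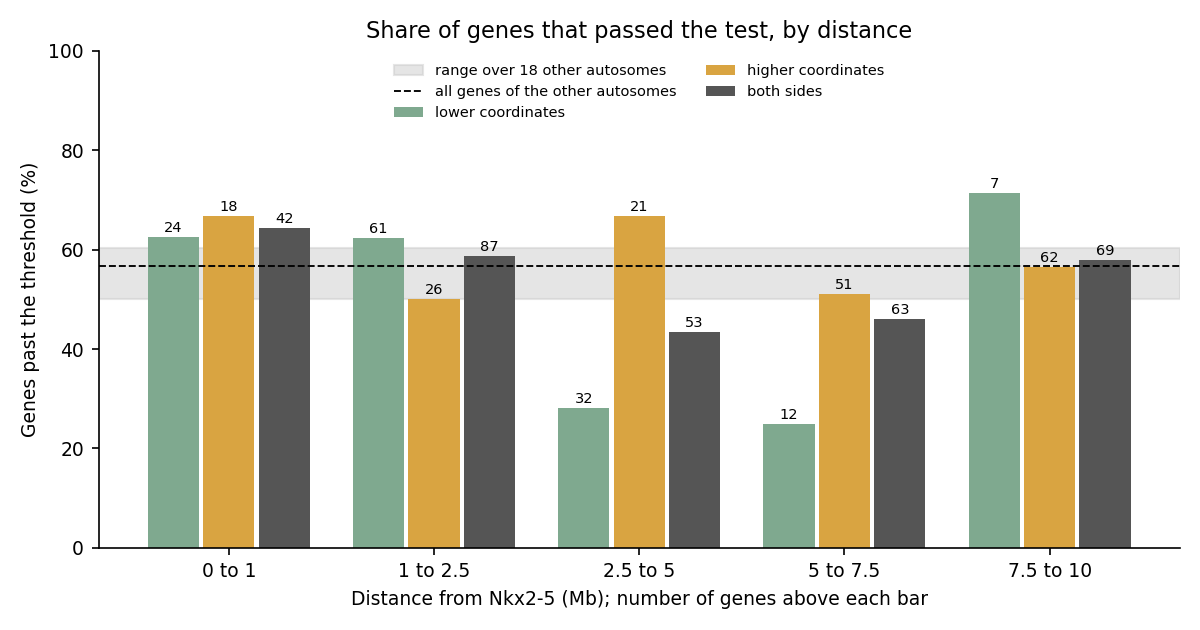
Percentage of genes past the threshold (y axis) by distance from Nkx2-5 in Mb (x axis), for lower coordinates, higher coordinates and both sides, with the number of genes above each bar. The dashed line is the 56.6% of the other autosomes and the grey band the range of 50.1% to 60.3% over them taken singly; the bars for both sides run from 43.4% to 64.3%.

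Of the 20 nearest genes with a mean of at least 5 normalized reads, 10 on each side, 19 are described here, of which 9 rose, 4 fell and 6 did not pass. Over all genes tested 56.3% passed, with 28.2% higher and 28.2% lower. In the fit limited to genes with a mean of at least 5 it was 61.4%. The closest at lower coordinates was Bnip1, which encodes a SNARE protein of traffic between the Golgi and the endoplasmic reticulum and starts 57.6 kb from Nkx2-5. Bnip1 was at 39.0, 38.9, 36.5 and 37.0 normalized reads in GOF and at 24.0, 21.4, 23.2 and 24.1 in WT. The groups were well apart, with a log2 change of 0.69 ± 0.06 (SE, limma adjusted p = 1.18e-07). Crebrf, which encodes a regulator of the CREB3 transcription factor in endoplasmic reticulum stress, starts 123 kb from Nkx2-5. It was at 38.7, 40.3, 46.8 and 35.9 normalized reads in GOF and at 11.1, 9.57, 10.9 and 11.1 in WT. Every GOF sample lay more than 3-fold above every WT sample, and the log2 change was 1.82 ± 0.08 (SE, limma adjusted p = 7.02e-11). Atp6v0e, a subunit of the proton pump that acidifies lysosomes, was at 60.9, 54.6, 55.0 and 58.1 in GOF and at 47.5, 49.6, 48.1 and 49.4 in WT, a small rise of 0.23 on the log2 scale with no overlap (limma adjusted p = 0.00113).

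On the other side the closest was Kifc5b, a kinesin motor gene 72.1 kb away, at 25.1, 24.5, 22.1 and 24.4 normalized reads in GOF and at 17.4, 17.7, 16 and 22.3 in WT. WT sample 4 lay inside the GOF range, and the log2 change was 0.38 (limma adjusted p = 0.00183). Atp6v0e, Crebrf, Bnip1 and Kifc5b thus formed an unbroken run of 4 called neighbours that all rose, with Nkx2-5, which was higher too, between the last pair. Other runs of 4 in the window are given below, and runs on the other autosomes were not counted. Neighbouring pairs with both genes higher were 32 of 313 in the window and 1130 of 12367 on the other autosomes. Beyond Kifc5b the direction was mixed. Cuta, 88.8 kb away, was lower, at 23.4, 20.5, 23.5 and 20.4 in GOF and 30.1, 29.5, 25.8 and 30.2 in WT (log2 change -0.38, limma adjusted p = 0.000339). Bak1, a pro-apoptotic gene of the BCL2 family, was lower as well (-0.34), and so was Uqcc2, an assembly factor of respiratory complex III (-0.25). Itpr3, which encodes a calcium release channel of the endoplasmic reticulum, rose. Its levels were 34.7, 40.3, 40.6 and 31.7 in GOF and 21.0, 23.0, 20.9 and 23.3 in WT (log2 change 0.71, limma adjusted p = 1.85e-06).

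The remaining genes of these 19 were mostly small changes or none. Phf1, a Polycomb partner, had a log2 change of 0.08 (95% interval -0.12 to 0.28), Zbtb9 0.12 (-0.11 to 0.34), Ggnbp1 -0.002 (-0.28 to 0.27) and Lemd2, an inner nuclear membrane protein gene, -0.04 (-0.19 to 0.11). Axin1, the scaffold of the beta-catenin destruction complex, was at -0.12 (-0.25 to 0.003), and Neurl1b, a ubiquitin ligase gene that acts on Notch ligands, at -0.16 (-0.32 to -0.004). These 6 did not pass. Ergic1, a cargo protein gene of the early secretory pathway, fell by 0.28 on the log2 scale (limma adjusted p = 1.98e-05). Dusp1, the phosphatase that switches off MAP kinases, is its neighbour. It was at 30.0, 35.0, 34.2 and 35.1 in GOF and 16.5, 16.5, 19.7 and 18 in WT, a log2 change of 0.89 (limma adjusted p = 8.07e-08).

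The largest change among these 19 genes was that of Rgs11, which encodes a regulator of G protein signalling known from neurons, 636 kb from Nkx2-5. Rgs11 was at 20.1, 22.0, 23.3 and 20.9 normalized reads in GOF and at 1.8, 1.91, 2.78 and 2.17 in WT. The mean was 9.95-fold higher in GOF, and the log2 change with the pseudocount was 2.84 ± 0.11 (SE, limma adjusted p = 1.2e-11). Rgs11 belongs to a further run of rises. Its neighbour Arhgdig, a gene of a GDP-dissociation inhibitor, was at 4.85, 7.02, 3.97 and 5.40 in GOF and 2.22, 3.17, 2.62 and 3.34 in WT (log2 change 0.71, limma adjusted p = 0.00102). Fam234a (0.21) and the splicing factor gene Luc7l (0.34) beside them rose as well. The other runs of 4 that rose were Zfp81, Zfp101, Adamts10 and Zfp414, and Clic1, Ddah2, Mpig6b and Abhd16a. Rgs11 and Arhgdig overlap by 4836 bases on opposite strands. The sources used here do not say that counting used the strand, so reads from the overlap cannot be told apart. The same holds for Dusp1 and Ergic1 (640 bases), for Phf1 and Cuta (4090 bases) and for Ggnbp1 and Bak1 (9200 bases).

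**Figure D3:**
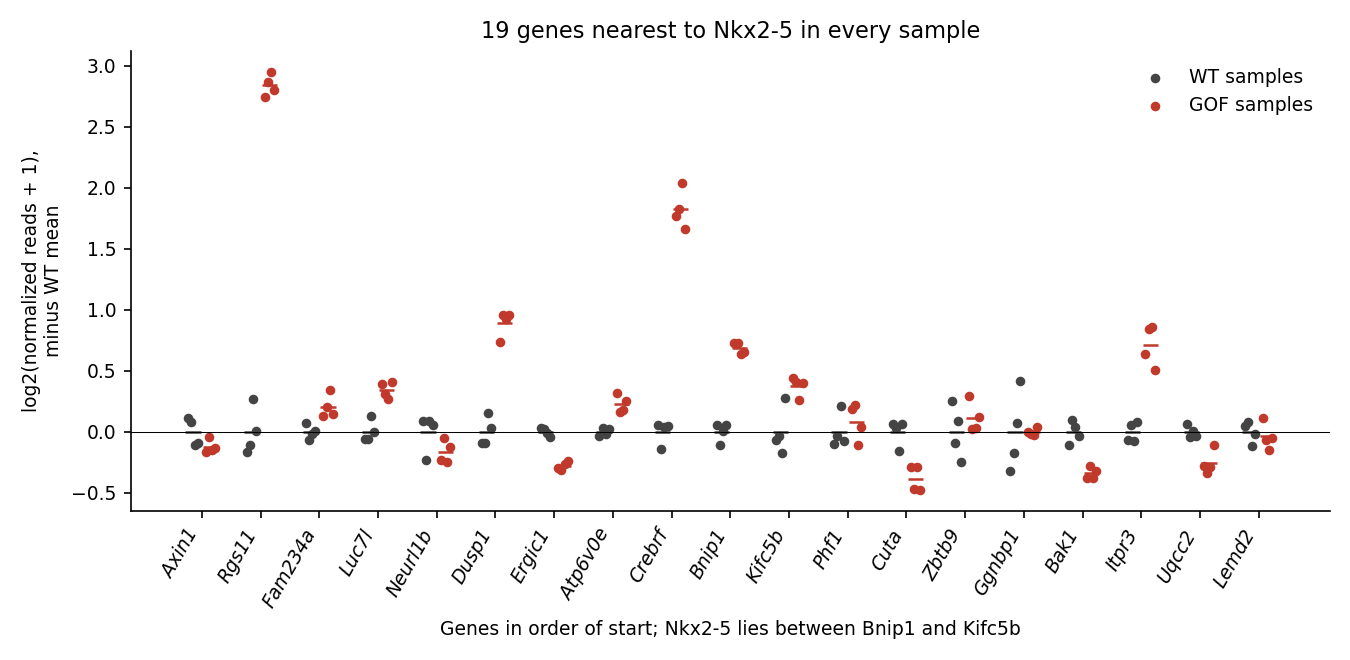
Level of 19 of the nearest genes in each sample (y axis, log2 of normalized reads plus 1, minus the WT mean), in order of start along the chromosome (x axis), with WT in dark grey, GOF in red and a bar at each group mean. Rgs11 and Crebrf stand apart at 2.84 and 1.82, while Ggnbp1 and Lemd2 lie around 0.

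Neighbours moved in the same direction about as often as elsewhere. Of 313 pairs of genes next to each other in the table, both were called in 90 (28.8%), and in 47 of these (52.2%) they moved the same way, 32 up and 15 down. On the other autosomes both were called in 32.4% of pairs, and 55.5% of those moved the same way. Pairs read away from each other from starts under 1 kb apart stood out in both places. Around Nkx2-5 there were 23, with both called in 6, and all 6 moved the same way, while on the other autosomes it was 141 of 187 (75.4%). The 6 were E4f1 with Pgp, Gnptg with Tsr3, Rps28 with Ndufa7 and Hspa1a with Hspa1l, which rose, and Traf7 with Rab26os and Pfdn6 with Wdr46, which fell. Pairs with overlapping spans moved the same way in 6 of 14 cases (42.9%), against 60% elsewhere.

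Among genes whose groups did not overlap and whose mean reached 5 normalized reads, the 10 largest rises were led by Ier3, an immediate early response gene at the far end of the window. Ier3 was at 95.7, 95.8, 125 and 91.2 normalized reads in GOF and 6.83, 5.86, 6.17 and 4.96 in WT. All GOF samples were far above all WT samples, by 17.1-fold in the mean and 3.88 ± 0.10 on the log2 scale (SE, limma adjusted p = 1.03e-11). Cdkn1a, the gene of the cell cycle inhibitor p21, was at 53.0, 47.9, 53.3 and 51.3 in GOF and 11.7, 11.6, 13.6 and 12.4 in WT (log2 change 1.98, limma adjusted p = 3.0e-12). The spread within each group was small beside the gap. Trp53cor1, a lincRNA gene next to Cdkn1a, was at 6.55, 6.05, 4.35 and 4.23 in GOF and 2.99, 2.60, 3.11 and 3.27 in WT (0.64, limma adjusted p = 0.00106).

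The inducible Hsp70 genes Hspa1a and Hspa1b rose but varied widely among GOF samples. Hspa1a was at 27.1, 9.86, 5.43 and 19.1 normalized reads in GOF and 1.15, 1.41, 2.14 and 1.21 in WT. The lowest GOF sample was still above every WT sample (log2 change 2.52 ± 0.47, SE, limma adjusted p = 0.00363). Hspa1b was at 30.8, 14.6, 9.44 and 22.0 in GOF and 3.76, 3.10, 3.51 and 5.32 in WT (1.93 ± 0.36, SE, limma adjusted p = 0.00317), and GOF samples ranked in the same order for both. Their promoters differ at 4 of 300 bases, and reads shared between the pair cannot be assigned with certainty. Hspa1l, the related gene on the opposite strand beside Hspa1a, was at 5.46, 6.68, 9.05 and 8.01 in GOF and 3.81, 4.74, 3.83 and 4.08 in WT (0.68, limma adjusted p = 0.000506), highest in GOF sample 3, where Hspa1a was lowest. Tnfrsf12a, a receptor gene of the TNF family, rose by 1.07, Tmem204, a junction protein gene of endothelium, by 0.84, and Sik1, a salt-inducible kinase gene, by 0.84, with limma adjusted p between 1.73e-09 and 8.7e-05. Tmem204 lies within the span of the cilium gene Ift140 on the opposite strand, over 25890 bases, and Ift140 had a log2 change of 0.10 that did not pass.

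The falls were smaller. Pde9a, which encodes a phosphodiesterase that degrades cyclic GMP, was at 3.43, 2.24, 2.89 and 2.37 normalized reads in GOF and 8.43, 8.06, 9.73 and 7.31 in WT. It was low in every GOF sample (log2 change -1.33 ± 0.13, SE, limma adjusted p = 3.94e-07). Tcf19, a gene of the G1 to S transition, was at 9.95, 9.52, 11.1 and 12.1 in GOF and 18.1, 18.3, 18.1 and 19.4 in WT (-0.75, limma adjusted p = 1.87e-06). Jpt2 was at 119, 125, 123 and 120 in GOF and 202, 200, 194 and 213 in WT (-0.73, limma adjusted p = 1.06e-09), with little spread in either group. The other large falls were those of Ppil1, a cyclophilin of the spliceosome (-0.70), the copine gene Cpne5 (-0.60), Metrn, the gene of the secreted factor meteorin (-0.59), the ribosome assembly genes Tbl3 (-0.57) and Wdr46 (-0.56), the mTOR complex subunit gene Mlst8 (-0.48) and the scaffold gene Slc9a3r2 (-0.48). Their limma adjusted p was 0.00066 or smaller. A mean under 5 kept 3 further changes of at least 2-fold out of these ranks. Hs3st6, a heparan sulfate sulfotransferase gene, was at 2.07, 2.58, 2.89 and 2.65 in GOF and 0.325, 0.282, 0.363 and 0.477 in WT (1.38, limma adjusted p = 9.84e-07). Every WT value of Hs3st6 lay under 1, so it met the filter of 1 normalized read in 4 samples through the GOF samples alone. Its change is thus not independent of that filter. Cyp4f13 had a log2 change of 1.14 and the somatostatin receptor gene Sstr5 one of -1.13. Tbl3 shares 2581 bases with Noxo1 on the opposite strand, which moved the other way (0.58), and Metrn shares 2243 bases with the lincRNA gene Gm26694.

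**Figure D4:**
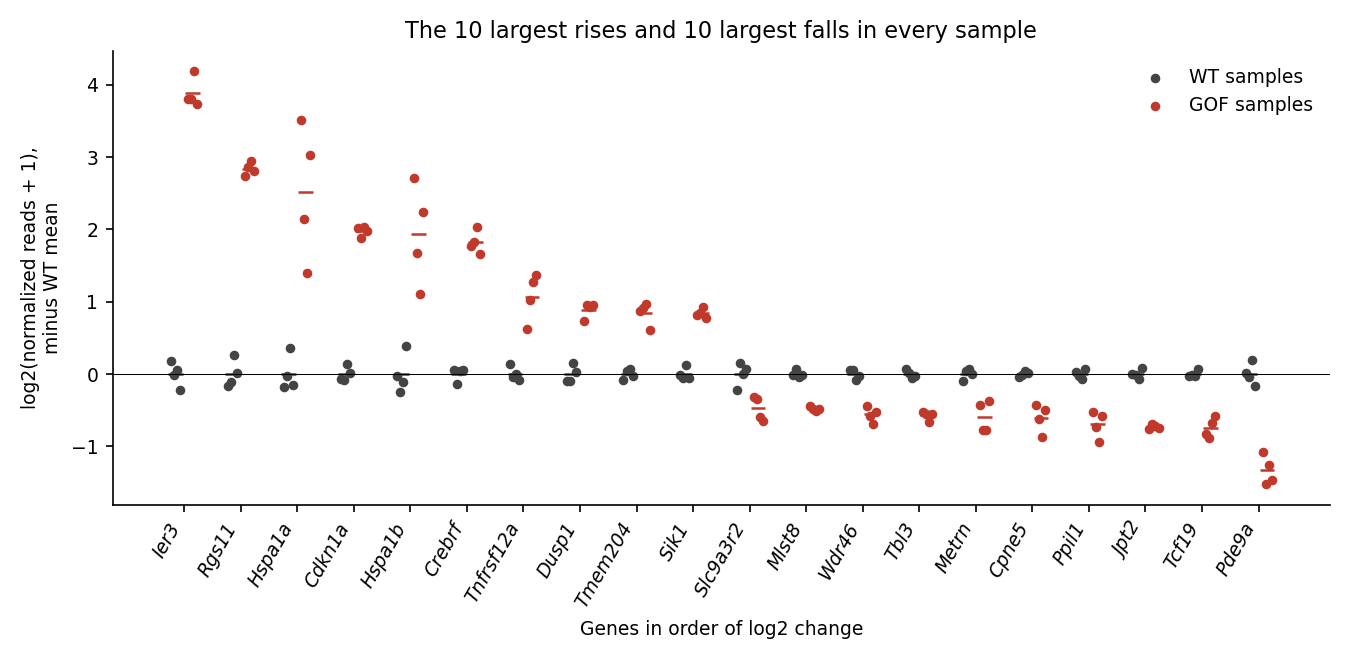
Level of the 10 largest rises and 10 largest falls in each sample (y axis, log2 of normalized reads plus 1, minus the WT mean; x axis, genes in order of change), with WT in dark grey, GOF in red and a bar at each group mean. The GOF points of Hspa1a and Hspa1b are spread out, those of Cdkn1a and Jpt2 tight, and no GOF point reaches the WT points of the same gene.

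Grouped by function, the genes around Nkx2-5 went different ways. Of 27 genes of transcription, chromatin and Notch signalling, 11 rose and 4 fell, while 12 missed the threshold (median log2 change 0.10). The 55.6% called was close to the 56.3% of all genes, whose median change was -0.002. With equal totals without mitochondrial genes this became 9 and 10, so the balance of this group depends on the scaling. The list is broad and also holds the kinase genes Sik1, Mapk13 and Mapk14, and Uhrf1bp1 and Zfand3. Of these Sik1 (0.84), Uhrf1bp1 (0.45) and Zfand3 (0.25) are among the rises and Mapk14 (-0.15) among the falls. Ppard, a lipid-sensing nuclear receptor gene, was at 38.5, 36.2, 41.6 and 33.5 in GOF and 22.2, 19.9, 18.6 and 22.3 in WT (0.82, limma adjusted p = 2.92e-07). Both Notch receptor genes of the window were higher. Notch3, the receptor gene of smooth muscle and pericytes, was at 122, 118, 124 and 99.5 in GOF and 68.9, 58.9, 65.7 and 72.8 in WT (0.79, limma adjusted p = 3.08e-06), and Notch4, that of endothelium, at 30.0, 33.4, 32.8 and 25.3 and 18.8, 20.4, 22.3 and 19.2 (0.56, limma adjusted p = 4.27e-05). GOF sample 4 was the lowest GOF sample for both. Tead3, a transcription factor gene of the Hippo pathway, rose by 0.46. Hmga1, an architectural chromatin protein gene, fell, at 358, 312, 323 and 347 in GOF and 446, 438, 453 and 447 in WT (-0.41, limma adjusted p = 2.24e-06).

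Of 27 genes of stress, survival and the cell cycle, 9 rose and 7 fell (median 0.02), so 59.3% were called against 56.3% of all genes. With equal totals without mitochondrial genes it was 9 and 9 with a median of -0.04, so the median of this group has no stable sign. Besides Ier3, Cdkn1a, Hspa1a, Hspa1b, Crebrf, Tnfrsf12a, Dusp1 and Bnip1 the ninth rise was that of the kinase gene Pim1 (0.70). The 7 that fell were Tcf19, Chtf18 (-0.47), the splicing kinase gene Srpk1 (-0.46), Rnf8 (-0.36), Bak1, the glyoxalase gene Glo1 (-0.30) and Stub1 (-0.12). Chtf18 takes part in DNA replication and Rnf8 in the response to DNA breaks. Angptl4, a lipoprotein lipase inhibitor gene induced in hypoxia, was at 4.57 normalized reads in GOF and 5.38 in WT in the mean and did not pass (-0.20, limma adjusted p = 0.201).

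Of 20 genes listed under mitochondrial proteins 3 rose and 8 fell (median -0.10). The list is broad and also holds Decr2, Msrb1, Jmjd8 and Nubp2, whose proteins are not chiefly mitochondrial. Jmjd8 (-0.16) and Nubp2 (-0.22) are among the falls. The 55% called was close to the 56.3% of all genes. Mrpl28, of the mitochondrial ribosome, was at 45.5, 46.8, 46.3 and 48.6 in GOF and 60.6, 63.4, 61.5 and 60.3 in WT (-0.39, limma adjusted p = 3.65e-06). Ndufv3, a subunit gene of respiratory complex I, went the other way, at 133, 145, 162 and 155 in GOF and 82.1, 80.8, 91.9 and 89.2 in WT (0.78, limma adjusted p = 6.69e-08), and Fahd1, an oxaloacetate decarboxylase gene, rose by 0.38. Fahd1 shares 1473 bases with Hagh on the opposite strand. Of 29 genes listed under ribosome and RNA processing 5 rose and 15 fell (median -0.16), so 69.0% were called against 56.3% of all genes. This list is broad too, and its falls include Telo2 (-0.40), Pfdn6 (-0.20) and Nelfe (-0.20), whose proteins have other main roles. The splicing factor genes Srsf3 (-0.44) and Hnrnpm (-0.39) fell. Srsf3 had a mean of 400 ± 15.7 normalized reads in GOF against 544 ± 6.62 in WT, and Hnrnpm 399 ± 15.9 against 524 ± 14.7 (SD, n = 4). The ribosomal protein genes Rps28 (0.24), Rps18 (0.18) and Rps10 (0.18) rose, as did Luc7l and Tsr3. Rps2 did not pass (-0.04). Rpl10a, a ribosomal protein gene of the window left off this list, was called higher too (0.26). None of the falls in the list was of a cytosolic ribosomal protein gene. In both of these groups the falls outnumbered the rises under every scaling tried.

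Of 14 genes listed under mTOR, polycystin and cilium 7 rose and 4 fell (median 0.14), so 78.6% were called against 56.3% of all genes. The 3 largest rises were not of mTOR genes but of Cacna1h, Itpr3 and Mapk8ip3, while the mTOR genes Mlst8 and Tsc2 fell. Cacna1h, a T-type calcium channel gene, was at 391, 399, 379 and 358 in GOF and 211, 201, 228 and 234 in WT (0.80, limma adjusted p = 4.6e-09). Mapk8ip3, a JNK scaffold gene, was at 162, 164, 159 and 165 and 102, 92.9, 104 and 102 (0.70, limma adjusted p = 2.99e-09). It overlaps Mrps34, Nme3 and Eme2, which had log2 changes of -0.30, -0.33 and -0.24. Pkd1 rose by 0.24 and Tsc2 next to it fell by 0.23 on the log2 scale, and their ends overlap on opposite strands. Of 18 genes of lysosome and membrane traffic 8 rose and 4 fell (median 0.15), so 66.7% were called against 56.3% of all genes. With equal totals without mitochondrial genes 7 rose and 7 fell. Flot1, the flotillin gene next to Ier3, was at 62.8, 69.8, 66.9 and 70.0 in GOF and 48.4, 39.9, 45.4 and 46.0 in WT (0.58, limma adjusted p = 1.01e-06), and Abca3, a lipid transporter gene, rose by 0.37.

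The zinc finger genes were the group with the lowest share called. Of 44, 13 rose and 2 fell, so 34.1% were called and 29 were not (median log2 change 0.10). The 351 genes named by the same prefixes on the other autosomes had 39.6% called, 105 higher and 34 lower, with a median of 0.10. With equal totals without mitochondrial genes the counts were 9 and 4 here and 79 and 49 there. Zfp960, near the lower end of the window, was at 17.3, 13.6, 12.4 and 10 normalized reads in GOF and 6.65, 8.81, 8.60 and 7.53 in WT (0.67, limma adjusted p = 0.000907). Zfp799 and Zfp81, above Nkx2-5, each rose by 0.47. Many of these genes are close copies of each other, and reads shared between copies cannot be assigned with certainty. Without the zinc finger genes 155 of 270 genes around Nkx2-5 passed (57.4%), against 57.1% of the other autosomal genes without theirs.

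**Figure D5:**
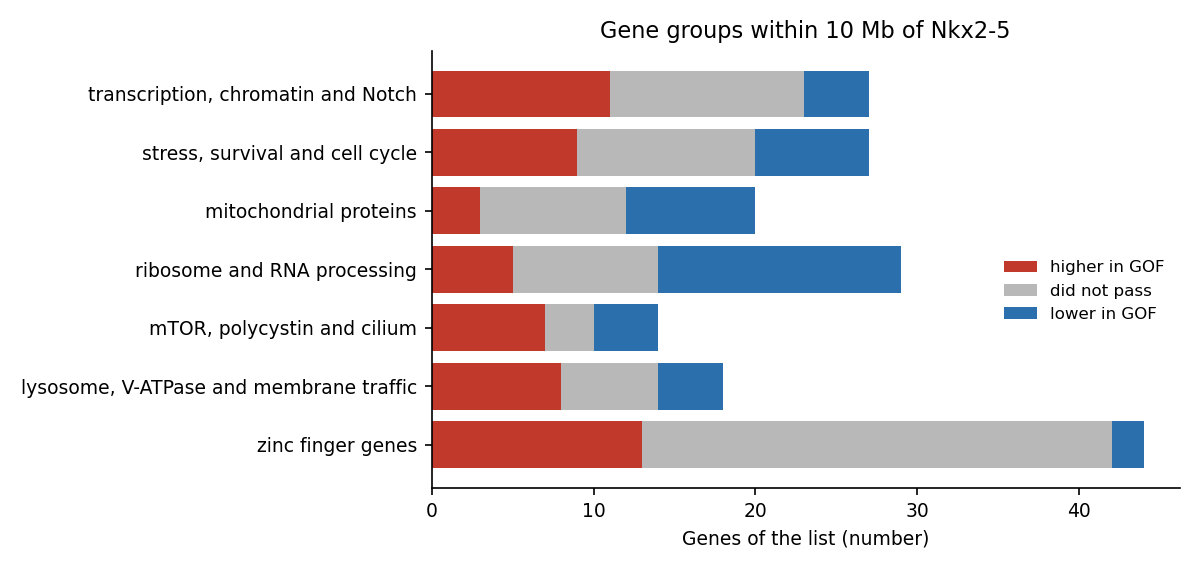
Number of genes (x axis) higher in GOF (red), not past the threshold (grey) and lower in GOF (blue) in each of 7 gene groups around Nkx2-5 (y axis). Falls outnumber rises in the broad lists of ribosome and RNA processing (15 against 5) and of mitochondrial proteins (8 against 3). Most of the 44 zinc finger genes did not pass.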

How the data were processed

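The deposited table gives each Ensembl gene a normalized read count, a signal never below 0, in 8 samples. Per the submitters' processing notes, the authors used RSEM 1.2.3, cutadapt 1.6, CASAVA 1.8.2 and FastQC with GRCm38. How they normalized, which annotation they counted on, and whether counting used the strand is not stated there. Every value equalled whole reads plus 0.5 over a scale per library (tolerance 0.01), but the scale was inferred from the values themselves and could not be verified for every library, so no count model was run. Gene IDs were matched to GENCODE M21 (13560 matched, 77 did not). The test was limma 3.58.1 (R 4.3.3; mean trend, robust prior, no covariate), two-sided, on log2 of the value plus 1, with Benjamini-Hochberg adjustment over all genes, threshold 0.05. Requiring 1 normalized read or more in 4 samples removed 0 genes. The 95% intervals are limma's, from the spread among samples; the floor of 3 reads covers counting error only. Counts are described beside those of the other autosomes, with no set test.

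The members, gene groups and rule for named genes were chosen with earlier results of these data known. The rule takes the 10 nearest genes on each side and the 10 largest rises and falls among genes with a mean of at least 5, and 3 genes with the smallest p per group; 1 gene it takes is not reported here. Other genes named, such as Notch3, Notch4, Tead3, Pim1, Trp53cor1, Arhgdig, Pkd1 and Rpl10a, were chosen after their values were seen. Of the listed genes Etv7 and Rpl3l had no row in the table. Alternatives were other pseudocounts, filters, scalings, priors, a block and leaving out each sample.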

Additional observations from a re-analysis of the deposited data

Results flagged for a closer look

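Among the 50 genes named by rule, each group of 4 samples was examined for a single sample far from the other 3, and 5 of the 100 groups had one. Chance alone marks about 5% of groups this way. Ier3 was high in GOF sample 3, at 125 normalized reads against 91.2 to 95.8 in the other GOF samples. Crebrf was low in WT sample 2, at 9.57 against 10.9 to 11.1, and Neurl1b in the same sample, at 28.4 against 34.8 to 35.7. Srsf3 was low in GOF sample 2, at 377 against 405 to 410, and Hnrnpm in GOF sample 1, at 376 against 405 to 410.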

How the results depend on the processing

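All 44 named genes that passed the test kept their call and direction in each of 16 other fits. With equal totals without mitochondrial genes the median log2 change of the genes around Nkx2-5 was -0.038 and with quantile normalization -0.044, against 0.022. The median of the other autosomes moved too, to -0.063 and -0.048, against -0.002. With overlapping genes left out, fewer genes were counted, with 52 lower and 47 called within 2.5 Mb. When single samples were left out, the genes called ranged from 155 to 175, the higher from 85 to 93, the lower from 70 to 85, those within 2.5 Mb from 71 to 80, and the share called on the other autosomes from 51.5% to 56.6%. Of the genes that did not pass, Ggnbp1 ranged from -0.11 to 0.14 and Lemd2 from -0.089 to 0.00067. Neurl1b passed without GOF sample 2 or WT sample 2 (limma adjusted p = 0.0452 and 0.00703) and Axin1 without WT sample 3 (0.0437), and both with equal totals without mitochondrial genes (0.0148 and 0.0129). The labels do not say whether the replicate numbers shared by the groups mark a litter or batch. The deviations of same-numbered samples had correlations from -0.14 to 0.01. So few values cannot show whether such samples share a litter or batch. With the number as a block 162 genes passed around Nkx2-5 (51.6%) and 54.2% on the other autosomes. The cause of these shifts was not tested. Under a mean of 10 normalized reads 30.1% of the genes passed, against 40.3% on the other autosomes.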
